A study of Saccharomyces cerevisiae with 4 samples.

Results

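The comparison described here is the dye swap of AT22 with S288C, 1 of the 4 strain comparisons and 2 of the 8 arrays of the series, chosen by the sample title that names both strains. AT22 is a strain of budding yeast (Saccharomyces cerevisiae) obtained from S288C by laboratory evolution at low pH with acetic acid. Whether it is a single clone is not given in the sources used here. S288C is its haploid parent, given as MATα and ho, with SUC2 and the alleles bio1, bio6, flo1, flo8-1, gal2, hap1, mal2 and mel, so AT22 starts from the same alleles. Both strains grew without acetic acid, in flasks of defined medium with 2% glucose at pH 5.0, 30 °C and 250 rpm, and were taken in mid exponential growth. The comparison therefore asks how the RNA of the acid-evolved strain differs from that of its parent when neither is under acid stress. On array 1 AT22 carried the dye Alexa647 and S288C Alexa555, and on array 2 the labels exchange the dyes. Each array holds 6336 genes in duplicate spots. The swap is 1 replicate with no measured spread between cultures, so sizes are given without p-values, and duplicate spots show only how well a spot repeats.

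Acetic acid crosses the plasma membrane undissociated and releases protons in the cytosol, which the plasma membrane proton pump Pma1 and the vacuolar proton pump then move out. Yeast answers weak acids through the transcription factors Haa1 and War1, which switch on exporters and cell wall proteins, and through changes in membrane lipids. Glucose enters the cell through the hexose transporters of the HXT family, whose members are switched on and off by the glucose that the sensors Snf3 and Rgt2 read.

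Duplicate spots correlated at 0.88 on array 1 and 0.91 on array 2, and 3845 of 6336 genes exceeded in both dyes, on array 1 and array 2 alike, what 95% of the empty spots gave. These genes are called above background. As raw minus local background, the limits were 50.2 in AT22 and 68.9 in S288C on array 1, and 78.4 and 39.0 on array 2. The direction of array 2 is not settled. The log2 ratio of the second over the first scanned channel correlated below 0 across genes between array 2 and each of the 6 arrays of the other comparisons (r -0.78 to -0.09), while array 1 correlated above 0 with 6 of 6 (0.02 to 0.60) and only 1 of 12 pairs among those 6 arrays from different swaps lay below 0. Within the 6 values of array 2, that with the second array of TAT12 over S288C, in the same dye orientation, was -0.59. The local background of the second channel was 0.591 of that of the first on array 2, against 1.97 times on array 1 and 0.932 to 7.94 times on the other 6. Between both arrays of AT22 with S288C, in the direction of the labels, r was -0.03, and it was -0.24 over the genes above background. Every result is therefore given for each array, in the direction of the labels ("as labelled") and with the sign of array 2 turned ("turned"). The labels and the study use the first.

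A further value comes from other arrays, in which AT22 and S288C were each hybridised with TAT12, another evolved strain of the series. The log2 AT22 over S288C worked out through TAT12 is called the indirect ratio. It uses 4 arrays, none of the pair described here, and the same strains, and whether it uses the same RNA is not given in the sources used here. Across genes it correlated at 0.21 with array 1 and at -0.51 with array 2 as labelled, and at -0.25 with the labelled mean of both arrays and 0.51 with the turned mean. These describe the genes of 1 pair of arrays, and genes are no replicates of one another. The labelled mean correlated at 0.73, and the turned mean at -0.21, with the mean second-over-first ratio of the other 6 arrays, which holds what the dyes share.

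The mating type in the genotype was set against genes that only one haploid cell type uses. Of 5 genes of α cells, 1 was above background on both arrays and dyes (AFB1), and the α-factor genes MF(ALPHA)1 and MF(ALPHA)2 and the a-factor receptor gene STE3 were not. All 6 genes of a cells were above background. MFA1, which encodes the pheromone a-factor, gave net intensities (raw minus local background, in scanner units) of 188 and 575 in AT22, against 370 and 268 in S288C on arrays 1 and 2. STE2, which encodes the receptor for α-factor, gave 236 and 347 in AT22, against 255 and 222 in S288C. By this limit the markers go against the MATα of the genotype in both strains. Of all 6336 genes, 3845 were above background, so passing the limit does not by itself settle the cell type. The cause was not tested.

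By the labelled mean, more genes were counted as lower in AT22 than as higher. A gene was counted when its mean log2 ratio was more than 2 SDs away from the average of its 100 neighbours by intensity, after the study's methods, which use an intensity-dependent z-score with this threshold. The window of 100 was set here. Each gene is measured against the spread of its neighbours, so the total counted is largely set by the rule. It does not say how many genes differ. As labelled, 34 of 6336 genes (0.537%) were counted as higher and 259 (4.09%) as lower in AT22. Turned, 76 (1.2%) were higher and 179 (2.83%) lower. Of the 259 genes lower as labelled, 95 were above background and 164 were not. In the indirect ratio, 203 of these 259 were above 0 (median 0.25), where 3482 of 6336 genes were. Of the 34 higher as labelled, 22 were below 0 in it. Turned, 71 of the 76 higher genes were above 0 in it and 118 of the 179 lower genes below 0. The mean second-over-first ratio of the other 6 arrays had medians of -0.36 over the 259 and 0.34 over the 34. Taken one array at a time, 157 genes (2.48%) were at least 1.5-fold higher and 395 (6.23%) at least 1.5-fold lower on array 1. On array 2 as labelled, 386 (6.09%) were at least 1.5-fold higher and 391 (6.17%) lower. Asking for 1.5-fold on both arrays left 1 gene higher (0.0158%) and 70 lower (1.1%), of which 15 were above background. In the indirect ratio 60 of these 70 were above 0 (median 0.38), and the 1 higher gene was below 0. Over the 70, the mean second-over-first ratio of the other 6 arrays had a median of -0.60. Opposed arrays were as common: 21 genes (0.331%) were at least 1.5-fold higher on array 1 and lower on array 2, and 65 (1.03%) lower on array 1 and higher on array 2, with 20 and 63 of them above background.

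**Figure D1:**
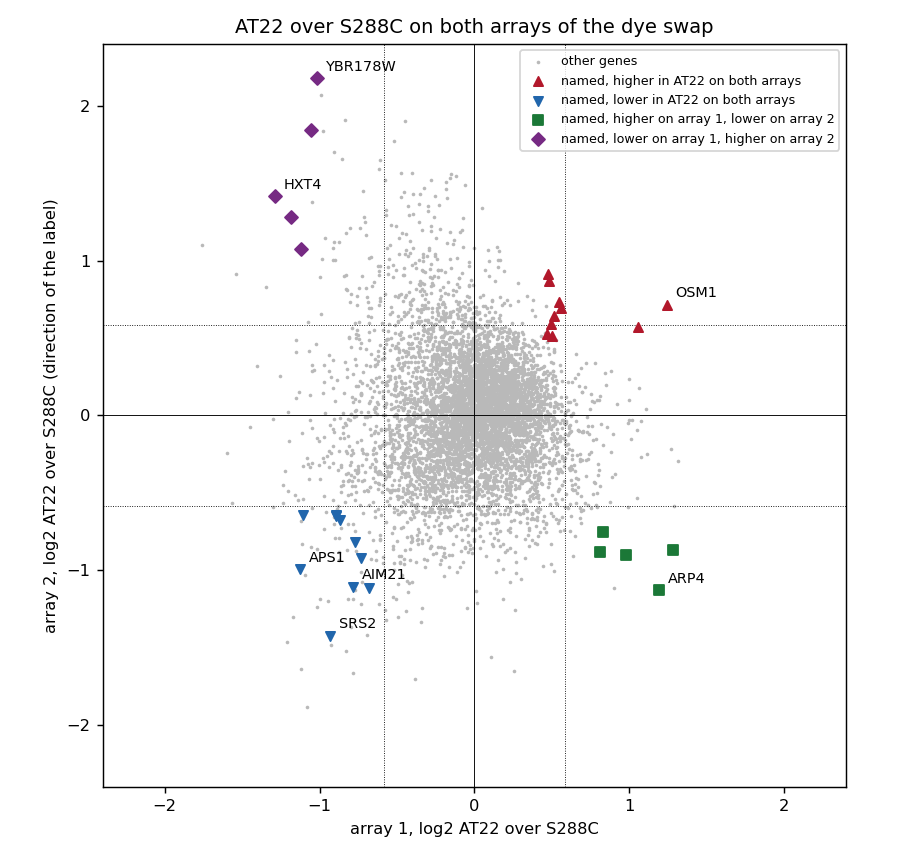
Each point is 1 of 6336 genes, with its log2 AT22 over S288C on array 1 (x axis) against array 2 in the direction of the label (y axis); dotted lines mark 1.5-fold and coloured symbols the 30 genes named by rule. The cloud shows no common slope (r = -0.03), and genes such as HXT4 and YBR178W lie in the upper left, lower on array 1 and higher on array 2.

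The place of a spot on the slide moved with these ratios. The slide is printed in 8 rows of 4 blocks, and genes in block rows 1 and 2 had a median log2 ratio of -0.26 on array 1 and -0.16 on array 2, against 0.16 and 0.08 in block rows 4 to 6. The same genes had medians of 0.09 and 0.03 in the indirect ratio. Single block medians ran from -0.49 to 0.28 on array 1 and from -0.35 to 0.17 on array 2. Block rows 1 and 2 hold 24.8% of all genes, 64.1% of the 259 lower as labelled and 64.3% of the 70 at least 1.5-fold lower on both arrays, and none of the 34 higher as labelled. Values with the loess curve fitted within each block are given beside some single genes as block-wise values. Other genes of block rows 1 and 2 are named below without them, and their ratios are not free of this shift. On array 1, the plain and block-wise values were -0.79 and -0.38 for GLK1 and -1.06 and -0.64 for TPI1. They were -1.05 and -0.45 for PYC1 and -0.78 and -0.20 for RPO21. The use of block-wise values for single genes and lists was decided with the values already known.

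**Figure D2:**
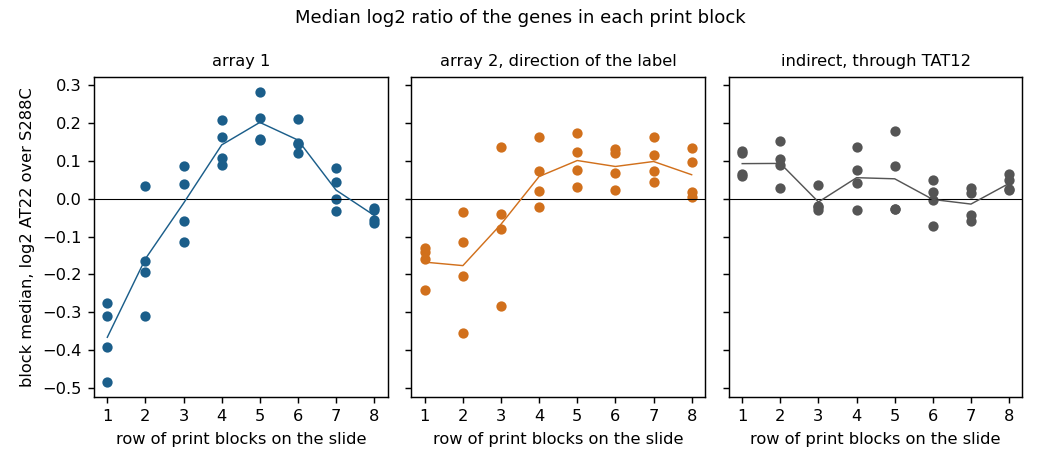
Points are the median log2 AT22 over S288C of the genes in each of 32 print blocks, by block row on the slide (x axis), for array 1, for array 2 as labelled and for the indirect ratio; lines join the row means. Both arrays of the pair are lowest in block rows 1 and 2, and the indirect ratio stays between -0.07 and 0.18.

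The members called furthest up and furthest down in a list were taken among genes above background with 1 gene on the probe. Where a pair of values follows a gene, the first is its log2 AT22 over S288C on array 1 and the second that on array 2 as labelled. Among the genes above background with 1 gene name on the probe, the 10 highest in AT22 on all 4 spots were led by OSM1, which encodes a fumarate reductase. Its net intensities on arrays 1 and 2 were 12605 and 14455 in AT22, against 5837 and 9922 in S288C, and its 4 spots gave log2 ratios of 1.26, 1.23, 0.63 and 0.80. OSM1 was thus higher on both arrays as labelled, at 1.24 on array 1 and 0.72 on array 2, and was the only gene at least 1.5-fold higher on both. Its turned mean was 0.26 and its indirect ratio -0.68. HAB1 followed with 1.06 on array 1 and 0.57 on array 2, from net intensities of 29870 and 28324 in AT22, against 14182 and 23336 in S288C, and an indirect ratio of 0.07. The mean log2 ratio of the second over the first channel on the 6 other arrays was 0.68 for OSM1 and 0.79 for HAB1. Over all 10 genes it ran from 0.07 to 0.79.

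The other 8 lay between 0.47 and 0.56 on array 1 and between 0.51 and 0.91 on array 2. They include OMS1, a mitochondrial inner membrane protein (0.55 and 0.73 on arrays 1 and 2), ESC2, a protein of genome stability and silencing (0.51 and 0.64), ULA1, a subunit of the enzyme that activates the ubiquitin-like Rub1 (0.50 and 0.51), and VFA1, a partner of the endosomal ATPase Vps4 (0.50 and 0.59). LTO1, needed for iron-sulfur cluster insertion into the ribosome recycling factor Rli1, gave 0.48 and 0.87, and the splicing-associated URN1 gave 0.47 and 0.53. YER134C gave 0.56 and 0.69 and YFR035C 0.48 and 0.91. YFR035C, YER134C and LTO1 had raw signals in the upper part of the scanner range, with net intensities in AT22 of 57559, 53455 and 40136 on array 1, where the highest raw value was 63956. Turned, none of the 10 was past a z-score of 2, and their indirect ratios ran from -0.79 (OMS1) to 0.39 (YFR035C). All 10 sit in block rows 4 to 6, and block-wise only OSM1 stayed at least 1.5-fold higher on both arrays.

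The 10 lowest in AT22 on all 4 spots were led by APS1, the small subunit of the clathrin adaptor AP-1, with log2 ratios of -1.13 on array 1 and -0.99 on array 2 and net intensities of 68.8 and 172 in AT22, against 300 and 286 in S288C. SRS2, a DNA helicase that takes apart recombination filaments, was lower still on array 2, at -0.93 on array 1 and -1.42 on array 2, from 82 and 159 in AT22, against 293 and 353 in S288C. Its indirect ratio was 1.11, higher in AT22, and its turned mean was 0.24. Its mean log2 ratio of the second over the first channel was -1.04 on the 6 other arrays, where the strains exchange dyes. AIM21, which acts in actin patch assembly, gave -0.79 and -1.11, from bright spots (3287 and 5301 in AT22, against 6709 and 12451 in S288C), and an indirect ratio of -0.06.

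THR1, the homoserine kinase of threonine synthesis, gave -0.73 and -0.92, EAT1, which makes ethyl acetate from ethanol, -0.77 and -0.82, and THG1, which adds a guanosine to histidine tRNA, -0.68 and -1.12. The sterol-binding NPC2 gave -0.87 and -0.68, the COPI coat subunit SEC28 -0.90 and -0.65, the mucin-like sensor MSB2 -0.90 and -0.65 and the ubiquitin protease UBP13 -1.11 and -0.64. Several of these were dim in AT22 on array 1, where the limit from the empty spots was 50.2. Net intensities there were 52.0 for UBP13, 60.4 for NPC2, 66.2 for THR1, 68.7 for EAT1, 77.0 for SEC28 and 88.5 for THG1. MSB2 was bright, at 6175. All 10 were at least 1.5-fold lower on both arrays as labelled, and none passed a z-score of 2 turned. On the 6 other arrays the mean second-over-first log2 ratio of these 10 ran from -1.04 (SRS2) to 0.05 (AIM21). Of these, 8 lie in block rows 1 and 2, the exceptions being SRS2 and THG1. Block-wise, 1 of 10 stayed at least 1.5-fold lower on both arrays. The block-wise values were -1.29 and -1.57 for SRS2, -0.58 and -0.82 for AIM21, -0.56 and -0.67 for APS1 and -0.13 and -0.65 for THR1.

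**Figure D3:**
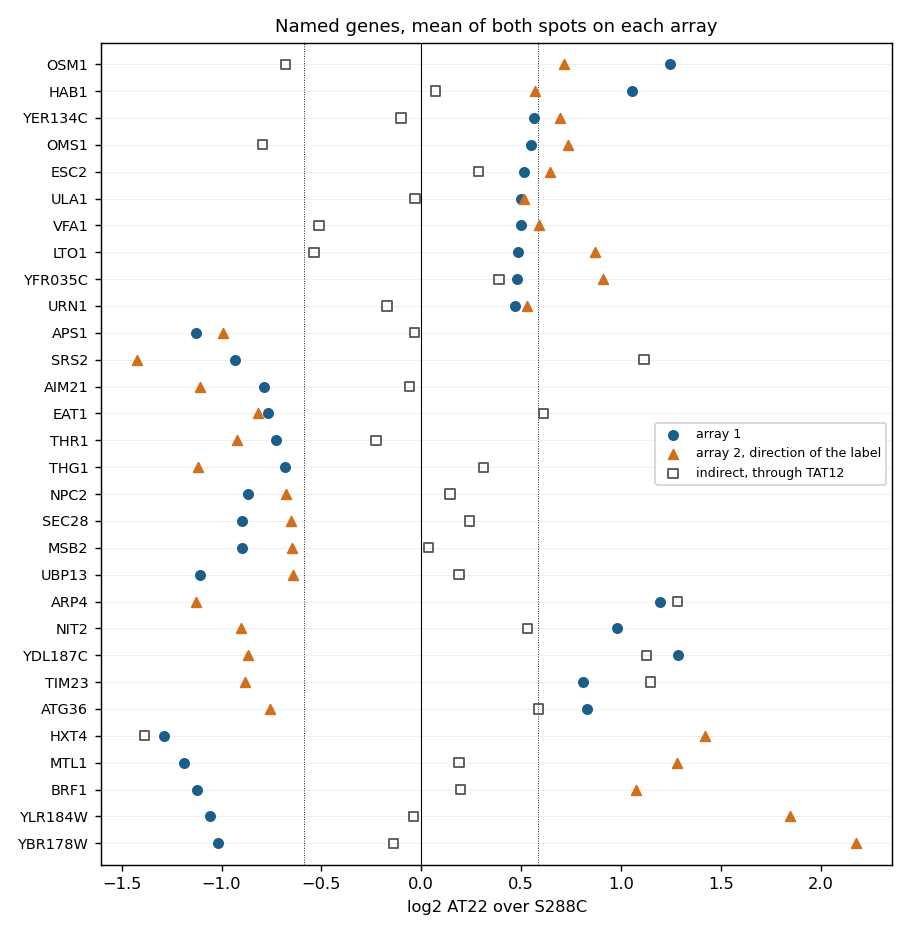
For the 30 genes named by rule, circles give log2 AT22 over S288C on array 1, triangles array 2 as labelled and open squares the indirect ratio; dotted lines mark 1.5-fold. In the upper 20 rows both arrays lie on one side of 0 by choice, and the indirect ratio of SRS2 (1.11) and OSM1 (-0.68) lies on the other; in the lower 10 rows the arrays oppose each other.

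Where the arrays opposed each other, some genes had an indirect ratio close to array 1. ARP4, an actin-related subunit of the chromatin complexes NuA4, INO80 and SWR1, gave 1.19 on array 1 and -1.13 on array 2, from net intensities of 492 and 404 in AT22, against 302 and 683 in S288C. Its 4 spots gave 1.19, 1.20, -1.15 and -1.11, its turned mean was 1.16 and its indirect ratio 1.28. YDL187C gave 1.28 and -0.87 with an indirect ratio of 1.13, and TIM23, the channel of the mitochondrial inner membrane translocase, gave 0.81 and -0.88 with 1.15. NIT2, of the nitrilase family, gave 0.98 and -0.90 with 0.53, and ATG36, a receptor that sends peroxisomes to autophagy, 0.83 and -0.76 with 0.59. All 5 were thus higher in AT22 on array 1 and in the indirect ratio and lower on array 2 as labelled.

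Among the 5 genes lower on array 1 and higher on array 2, HXT4, a hexose transporter, gave -1.29 on array 1 and 1.42 on array 2, from net intensities of 250 and 734 in AT22, against 995 and 174 in S288C, and an indirect ratio of -1.39. The other 4 had indirect ratios near 0. YBR178W had the largest value of array 2, 2.18, with -1.02 on array 1 and -0.14 indirectly, and YLR184W gave -1.06 and 1.85 with -0.04. MTL1, a cell wall stress sensor, gave -1.19 and 1.28 with 0.19, and BRF1, a subunit of the RNA polymerase III factor TFIIIB, gave -1.12 and 1.08 with 0.20. The net intensities of MTL1 were 578 and 3012 in AT22, against 1914 and 1086 in S288C, well above the empty spots on both arrays.

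The hexose transporter family held several of the genes with the largest opposed ratios. Lists of genes were made by textbook function, 51 in all, and each is described by its counts and median beside those of all 6336 genes, whose medians were 0.00 on array 1, 0.01 on array 2 and 0.03 in the indirect ratio. Of 28 hexose transporters, glucose sensors and sucrose or maltose genes, 21 were below 0 on array 1 and 17 above 0 on array 2 as labelled, with medians of -0.18 on array 1 and 0.20 on array 2 and -0.14 indirectly. Of the 28, 7 were at least 1.5-fold lower on array 1 and higher on array 2, against 1.03% of all genes, and none the other way round. The probes of HXT7, HXT6 and HXT3, which are among the 7, name genes in common, so the 7 are not independent. By z-score the list had 0 up and 1 down as labelled, and 1 up and 7 down turned. In the indirect ratio 0 of the 28 were at least 1.5-fold higher and 6 lower, where 4.04% and 5.65% of all genes were.

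HXT7, a high-affinity transporter whose probe also names HXT6, gave -1.76 on array 1 and 1.10 on array 2, the array 1 value being the lowest of all genes there, from net intensities of 69.8 and 204 in AT22, against 510 and 58.7 in S288C. The probe of HXT6, which names both genes too, gave -1.34 and 0.83, and that of HXT3, a low-affinity transporter, which also names HXT6 and HXT7, gave -1.05 and 1.38. These 3 probes cannot separate the genes, and they were singled out after their values were seen. Their indirect ratios were -0.62, -0.61 and -1.41, all lower in AT22. SUC2, the invertase that splits sucrose, gave -0.84 on array 1 and 0.90 on array 2, with -1.17 indirectly, from net intensities of 51.8 and 120 in AT22, against 189 and 40.1 in S288C. Its 51.8 and 40.1 lay just above the limits from the empty spots there, 50.2 and 39.0. HXT1, the main low-affinity transporter, gave -0.67 and 0.69 with -0.35 indirectly, and HXT15, whose probe names several transporters, gave -0.68 and 0.60 with -0.12. SUC2, HXT1 and HXT15 too were picked out after their values were seen.

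Not all of the family behaved like this. HXT2 gave -0.56 and 0.16, with 0.28 indirectly. HXT5, used in slow growth, gave -0.11 and 0.37, with -0.16, and HXT10 gave 0.40 and -0.09, with 0.04. MTH1, which relays the glucose signal to the repressor Rgt1, gave -0.22 and 0.42, with -0.43 indirectly, and its homologue STD1 gave -0.18 and 0.47, with -0.61. The sensors SNF3 and RGT2 and the repressor RGT1 were not above background. HXT8 was the member furthest down as labelled, at -0.63 and -0.24, and the one counted as lower (z = -2.12). Block-wise it gave -0.28 and 0.11, so the sign of array 2 changed there.

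**Figure D4:**
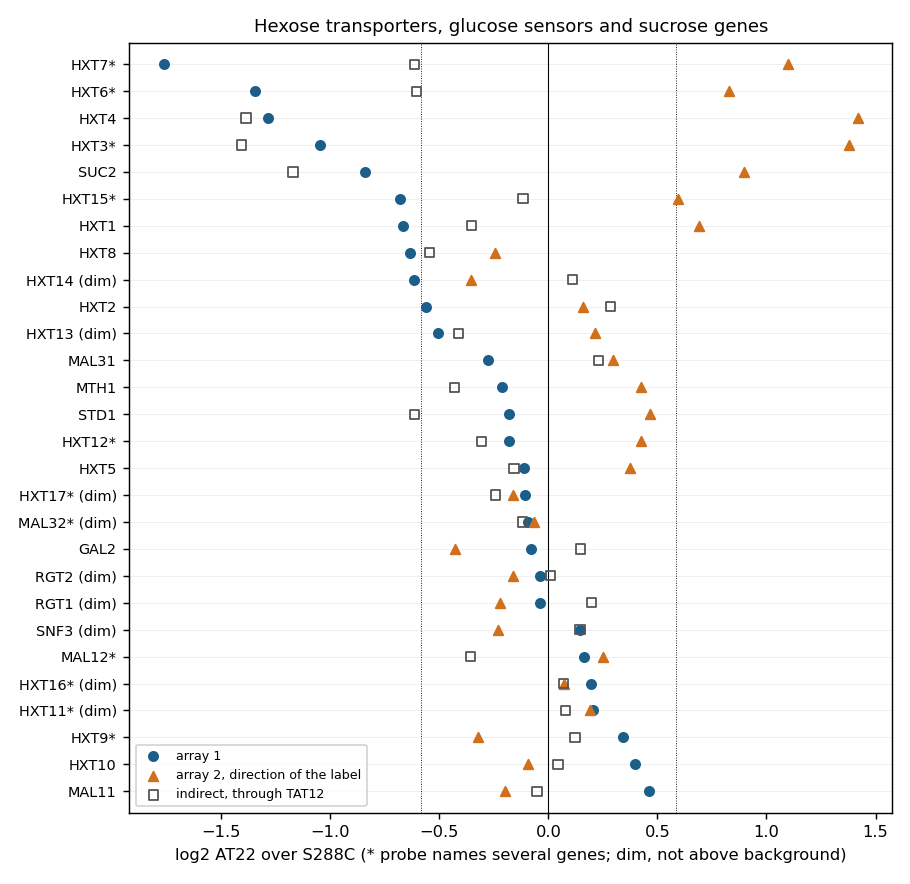
For each of the 28 genes of the list, ordered by array 1 from the lowest at the top, circles give log2 AT22 over S288C on array 1, triangles array 2 as labelled and open squares the indirect ratio. The upper 7 rows, HXT7 to HXT1, are below -0.58 on array 1 and above 0.58 on array 2, with open squares from -1.41 (HXT3) to -0.12 (HXT15).

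Glycolysis, which turns the glucose into pyruvate, leaned the same way on the arrays but not in the indirect ratio. Of its 24 genes, 19 were below 0 on array 1 and 16 above 0 on array 2, with medians of -0.21 on array 1 and 0.26 on array 2 and 0.08 indirectly, where 17 of 24 were above 0. HXK1, the hexokinase induced when glucose is scarce, gave -0.68 and 1.01 with -0.33, and was the list's count turned (z = -3.01). TPI1, the triose phosphate isomerase, was the member furthest down as labelled at -1.06 and -0.03 with 0.02, and GLK1, the glucokinase, gave -0.79 and -0.26 (z = -2.05). PGK1, phosphoglycerate kinase, was furthest up at 0.01 and 0.57. The probe of TDH3, which also names TDH2, gave -0.35 and 0.69 but 0.86 indirectly, for these glyceraldehyde phosphate dehydrogenases. In the fermentation list of 12, ADH1, the main alcohol dehydrogenase, gave 0.48 and 0.26 with 0.89, furthest up, and ADH3 -0.58 and -0.18, furthest down. No member of it was counted either way. Of all genes, 0.537% were up and 4.09% down as labelled, and 1.2% and 2.83% turned.

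Genes of proton and acid handling are set beside the shares of all genes counted. These were 0.537% up and 4.09% down as labelled, and 1.2% up and 2.83% down turned. At such shares, lists as short as these hold few counted genes or none. Of 12 genes around the plasma membrane proton pump, 11 were above 0 on array 2 as labelled but 5 on array 1, with medians of -0.05 on array 1 and 0.35 on array 2 and -0.12 indirectly. PMA1, the pump itself, gave 0.03 on array 1 and 0.35 on array 2, with 0.34 indirectly, from net intensities of 96.8 and 309 in AT22, against 147 and 170 in S288C, and its isoform PMA2 gave 0.09 and 0.34. YCK1, a plasma membrane casein kinase, was the member furthest up at -0.17 and 0.86, and PMP1, a small regulator of the pump, the furthest down at -0.15 and -0.11. None of the 12 was counted as labelled, and PMP3, not above background, was counted as lower turned. Of 21 subunits and assembly factors of the vacuolar ATPase, none was counted in either reading, with medians of -0.04 on array 1 and 0.10 on array 2. VMA8, a stalk subunit, gave -0.09 and 1.18 with -0.98 indirectly, the member furthest up, and the assembly factor VPH2 -0.20 and -0.44.

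Of all genes, 0.537% were up and 4.09% down as labelled, and 1.2% and 2.83% turned. None of 21 genes of the Haa1 and War1 regulons was counted in either reading (medians -0.07 and 0.18 on arrays 1 and 2). SPI1, a cell wall protein induced by weak acids, was furthest up at 0.30 and 0.40 with 0.61 indirectly, and AZR1, a transporter of weak acid resistance, furthest down at -0.15 and -0.46. Of 17 genes of acetate and carboxylate metabolism and transport, 1 was counted as lower as labelled, ACS1, an acetyl-CoA synthetase not above background, and 1 as lower turned, ATO3. ATO3, a plasma membrane protein of ammonium export, gave -0.47 on array 1 and 1.18 on array 2, with -1.18 indirectly, from net intensities of 3774 and 12183 in AT22, against 6180 and 5845 in S288C. ALD5, a mitochondrial acetaldehyde dehydrogenase, was furthest down at -0.23 and -0.23, equal on both arrays. Among the cation lists, SIS2, a regulator of salt tolerance, gave -0.25 and 1.41 with -1.42, and the calcium pump gene PMR1 -0.23 and -0.71 with 0.52. NHA1, the sodium and proton antiporter, gave 0.01 and -0.27 with -0.62.

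Of 15 copper and zinc genes, 0 were up and 4 down turned, where 2.83% of all genes were down, and 1 was down as labelled, where 4.09% were. ZRT1, the high-affinity zinc transporter, gave -0.46 on array 1 and 1.44 on array 2, with -1.02 indirectly, from net intensities of 304 and 1823 in AT22, against 631 and 518 in S288C. The copper metallothionein CUP1, present on 2 probes that each name CUP1-1 and CUP1-2, gave -0.69 and 0.64 on the probe listed as CUP1-1, with -0.47 indirectly, and -0.75 and 0.71 on that listed as CUP1-2, with -0.46. The CUP1 probes were picked out after their values were seen. Its activator CUP2 was the furthest down as labelled among members above background, at -0.27 and -0.34. ZAP1, the activator of ZRT1, was counted as lower in both readings (z = -2.69 and -3.63) but was not above background, at -1.11 and -0.11. The iron regulon of 28 genes had medians above 0 on both arrays (0.22 and 0.14) and 0.01 indirectly, with no member counted as labelled, and 1 up and 1 down turned. SIT1, a siderophore transporter, was its highest at 0.89 and 0.29 with -0.63, and FRE5, a ferric reductase, its lowest at -0.04 and -0.14. In the phosphate regulon, PHO2, a transcription factor, gave 0.16 and 0.77 and VTC1, of the polyphosphate polymerase, -0.42 and -0.30.

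Cytosolic ribosomal protein genes had opposite signs on the arrays. Of 139, 102 were below 0 on array 1 and 104 above 0 on array 2 as labelled, with medians of -0.24 on array 1 and 0.19 on array 2 and -0.09 indirectly. By z-score 0 were up and 3 down as labelled, against 0 up and 12 down turned, which is 12 of 139 where 2.83% of all genes were counted. RPS29A, of the small subunit, gave -0.71 and 1.28 with -0.19 indirectly, and RPL40A, which encodes a ubiquitin fused to a large subunit protein, -1.40 and 0.32 with -0.24, both chosen after their values were seen. RPP2B, of the stalk, was furthest up as labelled at 0.07 and 0.94 with -0.83, and RPL43B furthest down at -0.34 and -1.25 with 0.35. Many of these genes have near-identical copies whose transcripts one probe can bind, so members are not independent.

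Of the other translation lists, ribosome biogenesis had the lowest indirect median. The 73 mitochondrial ribosomal proteins had medians of -0.02 and 0.00, with RML2 at -0.06 and 1.49 counted as higher as labelled (z = 2.77, turned -1.77) and MRPL19 furthest down at -0.41 and -0.44. The 116 ribosome biogenesis genes had medians of -0.04 and 0.06 and -0.16 indirectly, where 21 were at least 1.5-fold lower (5.65% of all genes). SAS10, of the small subunit processome, was furthest up at -0.12 and 1.55 with -1.19, and NAN1, of the same complex, furthest down at -0.96 and 0.02 with 0.59. The 41 translation factors had medians of -0.07 and 0.15, with 3 at least 1.5-fold lower on both arrays (1.1% of all genes), RPG1, SUI2 and EFB1, none of them above background. Among them TEF4, an elongation factor subunit, gave 0.19 and 0.54 and the elongation factor YEF3 -0.44 and -0.37. Among 31 RNA polymerase subunits, RPA34 of polymerase I gave -0.08 and 1.20 with -1.09 and RPO21, the largest subunit of polymerase II, -0.78 and 0.08 with 0.40.

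The 23 genes of the mitochondrial genome had the lowest labelled median of the 51 lists, -0.30. On array 1, 20 of 23 were below 0, with medians of -0.47 on array 1 and -0.12 on array 2, but 0.20 in the indirect ratio, where 19 were above 0. By z-score 0 were up and 5 down as labelled, where 4.09% of all genes were down, and none was counted turned, where 2.83% were down. COX2, a subunit of cytochrome oxidase, gave -0.79 on array 1 and -0.43 on array 2 with 0.15 indirectly, from net intensities of 58.6 and 79.5 in AT22, against 198 and 104 in S288C, and was the 1 of the 5 above background. Its 79.5 on array 2 lay just above the limit from the empty spots there, 78.4. VAR1, a mitochondrial ribosomal protein, was furthest up at 0.16 and 0.17. The intron-encoded AI5_ALPHA had the lowest labelled mean, -1.48, and AI2 and BI2 followed with -1.24 and -1.34, none of them above background. Of this list, 34.8% sits in block rows 1 and 2, against 24.8% of all genes, and the block-wise medians were -0.29 and -0.13. The mean second-over-first ratio of the other 6 arrays had a median of -0.24 over the list, against 0.01 over all genes, and was -0.66 for COX2.

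Of 60 nuclear genes of the respiratory chain and ATP synthase, 0 were up and 6 down as labelled (0.537% and 4.09% of all genes), and 1 up and 4 down turned (1.2% and 2.83%), with medians of -0.01 and 0.06. QCR9, of the cytochrome bc1 complex, was furthest down at -1.22 on array 1 and -0.36 on array 2, with block-wise values of -0.84 and 0.04, and SDH3, of succinate dehydrogenase, furthest up at 0.86 and -0.08. MIR1, the mitochondrial phosphate carrier, gave 0.26 and -1.65 with 1.02 indirectly and was counted as lower as labelled (z = -2.70) and as higher turned (2.13); AAC1, an ADP and ATP carrier, gave -0.20 and -1.04 with 0.86. Both were singled out after their values were seen. In the citrate and glyoxylate cycles PYC1, pyruvate carboxylase, was furthest down at -1.05 and -0.08. In gluconeogenesis CAT2, carnitine acetyltransferase, was furthest up at 0.26 and 0.30 and YAT1, another carnitine acetyltransferase, furthest down at -0.66 and 0.21. All 4 genes of proline use were above 0 on array 1 and below 0 on array 2, PUT1, proline oxidase, at 0.24 and -0.46 and PUT3, the activator of the pathway, at 0.30 and -0.08.

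In protein folding, the 30 genes of the endoplasmic reticulum had medians of -0.11 on array 1 and -0.17 on array 2 and 0.13 indirectly, with 22 of 30 below 0 on array 2. Their labelled median of -0.12 was 1 of 3 at or below -0.1, and 2 were down as labelled (4.09% of all genes) and 1 turned (2.83%). The 48 heat shock genes had medians of -0.08 on array 1 and 0.01 on array 2 and 0.13 indirectly, with XDJ1, a J-domain co-chaperone, furthest up at -0.14 and 0.78 and SSA3, a heat-inducible Hsp70, furthest down at -1.15 and 0.11. In the endoplasmic reticulum list SEC63, of the translocon, gave -0.90 and -0.62 with 0.07 and block-wise -0.50 and -0.42, while SBH2, of the related Ssh1 translocon, gave 0.12 and 0.63. PDI1, protein disulfide isomerase, was opposed at -0.87 and 1.12 with -1.58 indirectly, and was chosen after its value was seen. In 39 proteasome genes RPN2 gave 0.19 and 0.93 with -0.99 and the ATPase RPT2 -0.49 and -1.31 with 0.62, each on the other side of 0 in the indirect ratio. Of 40 Msn2 and Msn4 targets, 1 was down as labelled (GLK1) and 3 turned. Of 36 genes of oxidative defence, 2 were down turned, with SKN7, a stress transcription factor, furthest up at 0.34 and 0.37 and YAP1, the main oxidative stress activator, furthest down at -0.79 and 0.12. Among drug transporters, ATR1 gave 0.28 and 0.52 and RSB1 -0.15 and -0.56.

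Of 28 ergosterol genes 1 was down as labelled, of 26 sphingolipid genes 2 were down as labelled and 2 up turned, of 36 peroxisomal genes 3 were down as labelled and 2 up turned, and of 48 cell wall genes 2 were down as labelled, where 4.09% of all genes were down as labelled and 1.2% up turned. Of the cell wall genes, 36 were above 0 on array 2 and 19 on array 1, with FLO10 furthest up at 0.20 and 0.49 and the flocculin FLO11 furthest down at -0.08 and -0.81 with 0.65. In cell wall integrity signalling RLM1, its transcription factor, was counted as higher as labelled at 0.16 and 1.01 with -0.61, and BEM2 was furthest down at 0.24 and -0.68. ECM22, an activator of ergosterol genes, gave 0.44 and 0.44 and the oxysterol-binding HES1 -0.59 and -0.19. In sphingolipid synthesis LIP1, a ceramide synthase subunit, gave -0.74 and -0.58 and was counted as lower as labelled, with block-wise values of -0.14 and -0.43, and the kinase LCB5 gave -0.22 and 1.20 with -1.47. The fatty acid activation gene FAA2 gave -0.53 and -0.48 with block-wise values of -0.18 and -0.13, and the elongase ELO1 0.11 and 0.53. In the peroxisome list PEX22 gave 0.19 and -0.99 with 0.64, counted as higher turned (z = 3.11), and SPS19, of beta-oxidation, 0.38 and 0.31.

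Of 37 purine and pyrimidine genes, ADE16, of purine synthesis, was counted as lower as labelled at -0.44 and -1.27 with 0.60 indirectly, and URA4, dihydroorotase, chosen after its value was seen, as higher turned at 0.51 and -1.01 with 1.26. The 14 arginine synthesis genes had the second lowest labelled median of the lists, -0.20, with medians of -0.10 on array 1 and -0.08 on array 2 and 0.03 indirectly. Of this list, 42.9% sits in block rows 1 and 2, against 24.8% of all genes. Block-wise, its medians were 0.04 on array 1 and -0.11 on array 2, and its labelled median was -0.08. The turned median was 0.04. ARG2, of ornithine synthesis, gave -0.95 and -1.20 with 0.84, and ARG3, ornithine carbamoyltransferase, -1.11 and -0.83 with 0.67, both counted as lower as labelled, not above background and picked out after their values were seen. ARG4, argininosuccinate lyase, gave -0.76 and -0.01 and CPA1 0.35 and 0.27. GCV1, of the glycine cleavage system, gave -0.39 and 1.43 with -1.12, and the sulfate assimilation gene MET14 -0.33 and -0.43. ARO3, of aromatic amino acid synthesis, gave 0.25 and 0.60, from net intensities of 61276 and 60991 in AT22, against 45430 and 53292 in S288C, near the top of the scanner range. Among permeases DIP5, for glutamate and aspartate, gave -0.06 and 0.74 with -0.90, and AGP2 -0.17 and -0.73. In vitamin and inositol synthesis INO2, an activator, gave 0.70 and 0.15 and THI6, of thiamine synthesis, -0.36 and -0.36. In the pentose phosphate list TKL1, transketolase, gave 0.04 and 0.34 and PRS4, of phosphoribosyl pyrophosphate synthesis, -0.64 and -0.43.

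Counted genes of the storage and signalling lists are set beside the shares of all genes. These were 0.537% up and 4.09% down as labelled, and 1.2% up and 2.83% down turned. The glycerol kinase GUT1 gave 0.09 and 1.07, counted as higher as labelled, and the glycerol symporter STL1 -0.85 and -0.43, counted as lower, with block-wise values of -0.35 and -0.17. NTH1, trehalase, gave 0.08 and 0.44 and PIG2, of glycogen synthase regulation, -0.39 and -0.03. In Ras and protein kinase A signalling BCY1, the inhibitory subunit, gave 1.12 and -0.25 and TPK3, a catalytic subunit, -0.44 and -0.48. SNF4, the gamma subunit of the Snf1 kinase, gave 1.05 and -0.10 with 0.76, and TUP1, a general repressor, -0.41 and 0.11 with -0.68. The 11 histone genes had medians of -0.26 on array 1 and 0.30 on array 2 and -0.04 indirectly. Turned, 2 were down (2.83% of all genes), HTA1 and HHT2, neither above background. HTB1 gave -0.24 and 0.43 and the linker histone HHO1 -0.26 and -0.03.

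Of 41 mating genes, 3 were down as labelled (4.09% of all genes) and 2 up turned (1.2%), with AFB1 furthest up at 0.48 and 0.40 and FIG1 furthest down at -0.64 and -0.34. Of 37 genes of the subtelomeric PAU, COS and YRF1 families, 4 were down as labelled (4.09% of all genes) and 0 turned (2.83%), among them PAU7 at -1.20 and 0.02, with block-wise values of -0.60 and 0.24, while PAU2 gave 0.21 and 0.51. The probes of PAU7 and PAU2 name 1 gene each, while others of these families can name several. Among vacuolar and autophagy genes VPS30 gave 0.17 and 0.65 and VPS29 0.10 and -0.76, and among meiotic genes SPO16 -0.34 and 1.19, counted as lower turned, and SPS22 -0.37 and -0.73 with 1.07. Across the 51 lists, 7 had a labelled median of at least 0.1 in size, 4 above and 3 below 0, and 9 a turned median of that size, 1 above and 8 below.

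**Figure D5:**
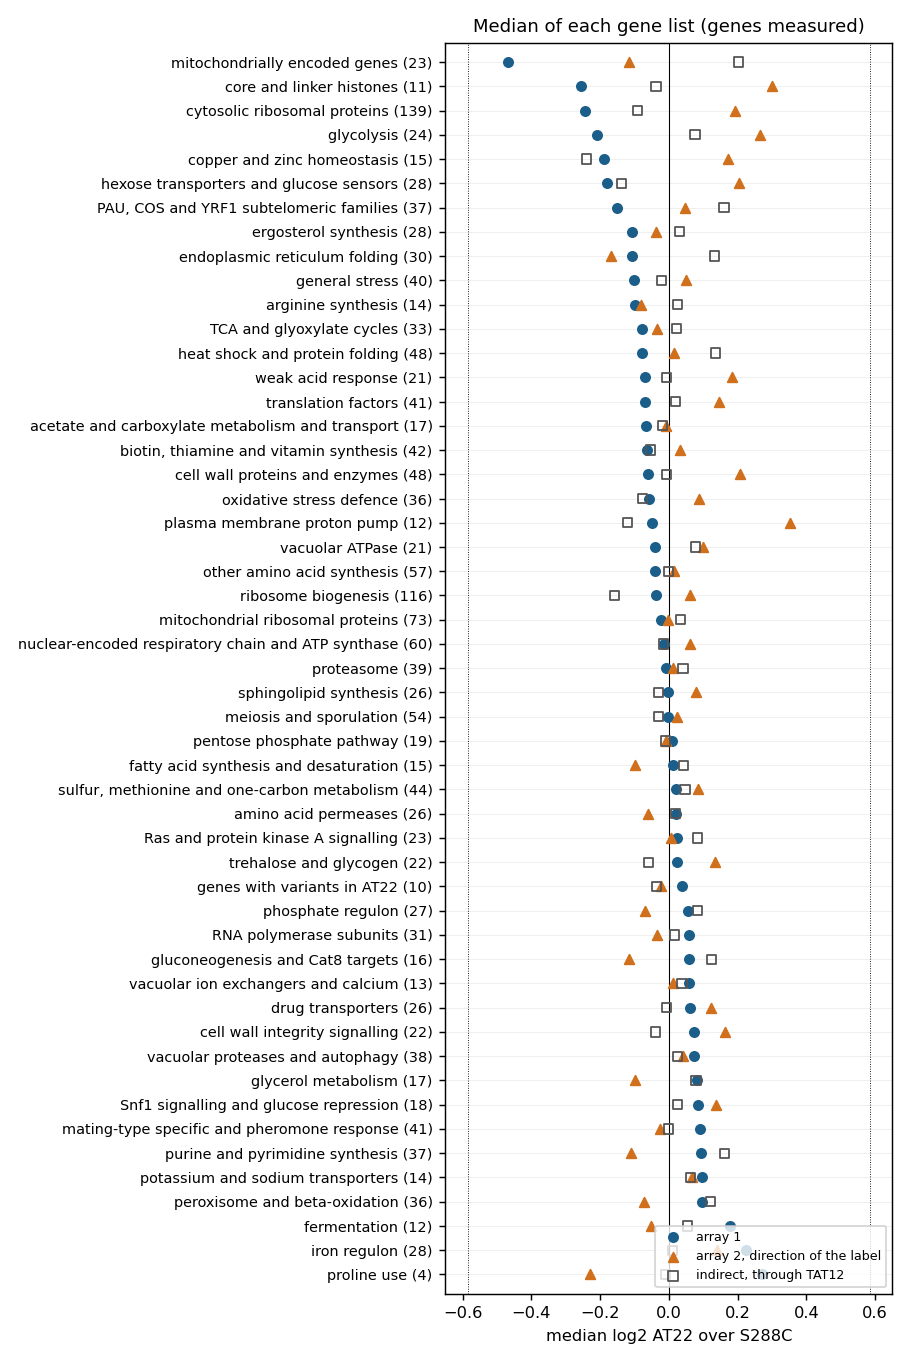
For each of 51 gene lists, ordered by array 1 from the lowest at the top, circles give the median log2 AT22 over S288C of its genes on array 1, triangles array 2 as labelled and open squares the indirect ratio, with the number of genes in brackets. The lists at the top are the lowest on array 1, from mitochondrially encoded genes (-0.47) down to hexose transporters (-0.18), and for histones, cytosolic ribosomal proteins, glycolysis, copper and zinc genes and hexose transporters array 2 lies on the other side of 0.

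A last list holds 10 genes that the study's text names as carrying variants in AT22. It is not complete, since the study gives further genes with variants, which are not in the list. By z-score 0 were up and 2 down as labelled (0.537% and 4.09% of all genes), and 1 up and 0 down turned (1.2% and 2.83%). The 2 were HXT8, described with its family, and GPA1, the G protein α subunit of the pheromone pathway, which gave 0.02 on array 1 and -1.21 on array 2 with 0.49 indirectly; GPA1 was not above background, and is the 1 counted as higher turned (z = 3.58). PEX10, a peroxisomal ubiquitin ligase, gave -0.53 and -0.09, with block-wise values of -0.17 and 0.18. PHO84, the high-affinity phosphate transporter, gave 0.30 and 0.28, PHO91, the vacuolar one, -0.23 and -0.22, and VCX1, the vacuolar calcium and proton exchanger, 0.11 and 0.34. PUT3 gave 0.30 and -0.08 with 0.56. BAS1, an activator of purine and histidine synthesis that the study also names with a variant, was added after its value was seen and gave 0.18 and 0.41 with 0.18, not past a z-score of 2 as labelled (z = 1.37) or turned (-0.68). The remaining 3 were not above background. CAT8, the activator of gluconeogenesis, gave 0.06 and 0.21, OAF3, a regulator of the oleate response, gave -0.08 and 0.08, and ATO2, of the acetate and ammonium transporter family, gave 0.13 and 0.03.

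Chromosomes were compared because a change in copy number would move all genes of a chromosome together. Chromosome I, with 107 genes, had the lowest medians of the 16 nuclear chromosomes on both arrays, -0.20 and -0.13, but 0.10 in the indirect ratio. Block-wise its medians were -0.19 and -0.14, and 27.1% of its genes sit in block rows 1 and 2, against 24.8% of all. The other 15 lay between -0.10 and 0.08 on array 1 and between -0.05 and 0.08 on array 2. The highest were chromosome VIII on array 1 and XI on array 2. In the indirect ratio the medians ran from -0.02 (V) to 0.13 (X).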

How the data were processed

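RNA of AT22 and S288C was compared on a dye-swap pair of yeast arrays with 50-mer oligonucleotides, 13056 spots each. The deposited scanner tables hold raw and local background intensity per spot and channel, per the file headers. The authors also deposited tables of their own comparisons and a value table that holds 1 score per gene and swap, a z-score of the log ratio. Software settings, background correction and normalization behind those z-scores are not given in the sources used here. The comparison tables were not used. The value table served as an alternative only: its column for AT22 with S288C (median 0.11) correlated at 0.78 with the labelled z-score computed here, and its centring is unknown.

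Intensities were corrected with normexp (offset 50) and normalized by loess within each array in limma 3.58.1 (R 4.3.3), with the 384 control and empty spots given no weight. Duplicate spots were averaged, each array was turned to AT22 over S288C by its label, and the arrays were averaged. Net intensities are raw minus background and not normalized. Tables and figures were made with Python 3.11.15, numpy 2.4.6, pandas 2.3.3 and matplotlib 3.10.9, and the calculations were tested on simulated data. Symbols came from RefSeq for 5847 of 6336 genes, and 489 kept the name in the files. The probes of 275 genes name several genes.

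The genes named were, among those above background with 1 gene on the probe, the 10 up and the 10 down on all 4 spots and the 5 and 5 with opposed arrays, ranked by the smaller of the absolute log2 ratios of both arrays, the extremes of each list by the labelled mean, and every gene of the list of variants in AT22; others are named as picked out afterwards. The comparison and the lists were chosen with earlier results of these data known. The alternatives were other background corrections, normalizations, thresholds, filters, single spots, single arrays, the array turned, the indirect ratio, the deposited z-scores and a limma fit over the 4 swaps. The number of arrays limits the precision. No sequences or coordinates were used here, and the result of 1 gene is not reported here.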

Additional observations from a re-analysis of the deposited data

Results flagged for a closer look

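Genes were compared between AT22 over S288C and TAT12 over S288C, 2 comparisons that share the parent strain. As labelled, 3 genes passed a z-score of 2 in opposite directions with both arrays of each swap alike in sign. EAT1, which makes ethyl acetate, had a mean log2 ratio of -0.79 in AT22 (-0.77 and -0.82 on arrays 1 and 2) and 0.52 in TAT12 (0.41 and 0.63). JLP1, an oxygenase that frees sulfur from sulfonates, had -0.84 in AT22 (-0.34 and -1.34) and 0.85 in TAT12 (0.17 and 1.53). ZDS1, a regulator of protein phosphatase 2A, had 0.62 in AT22 (0.15 and 1.09) and -0.95 in TAT12 (-0.91 and -0.99). The differences were not tested, since each swap is 1 replicate. With array 2 of AT22 turned, the AT22 means were 0.02 for EAT1, 0.50 for JLP1 and -0.47 for ZDS1, none past a z-score of 2, and no gene met the same condition.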

How the results depend on the processing

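The count of genes past a z-score of 2 was 293 as labelled, 34 higher and 259 lower in AT22. Only genes above background gave 173, an absolute z-score above 1 gave 1853, and a 2-fold mean in place of the z-score gave 19. limma with Benjamini-Hochberg adjustment over the 4 swaps, with 1 residual degree of freedom, gave 0 genes as labelled and 0 turned, against 91 and 1230 at an unadjusted p under 0.05. That degree of freedom is only how well the loop of S288C, AT22 and TAT12 closes, so the fit does not measure spread between cultures. The split into higher and lower moved more than the total: 76 and 179 turned, 77 and 220 with loess within print blocks, 115 and 196 with both, 61 and 238 on array 1 alone, 107 and 175 on array 2 alone, 162 and 168 in the indirect ratio and 60 and 212 in the deposited z-scores. Print blocks with the turned array, and print blocks for all results but this count, were added after seeing the data. Genes at least 1.5-fold in 1 direction on both arrays numbered 71, and 283 with plain background subtraction, 16 above background, 6 at 2-fold, 32 with the dye ratio of the other swaps subtracted and 32 with print blocks. Lists with a median of at least 0.1 in size numbered 7, and 16 with plain subtraction, 13 on array 1 alone, 19 on array 2 alone and 11 in the indirect ratio. The range of chromosome medians was 0.23, and 0.39 with plain subtraction, 0.12 turned, 0.28 on array 1 alone and 0.16 in the indirect ratio. Of 133 named genes, 36 passed a z-score of 2 as labelled and 29 of these changed sign under at least 1 alternative. Turned, the log2 ratios were -0.093 for OMS1, -0.045 for VFA1, -0.22 for YFR035C, -0.030 for URN1, 0.24 for SRS2, 0.16 for AIM21, 0.024 for EAT1, 0.097 for THR1, 0.22 for THG1, -1.60 for YBR178W, -0.42 for RLM1, 0.45 for RPL43B, -0.77 for RML2, -0.83 for SAS10, -0.49 for GUT1, 0.28 for AGP2, 0.41 for ADE16, 0.41 for RPT2 and 0.61 for GPA1. The indirect ratios were -0.68 for OSM1, -0.79 for OMS1, -0.51 for VFA1, -0.17 for URN1, 1.11 for SRS2, 0.61 for EAT1, 0.31 for THG1, 0.14 for NPC2, 0.24 for SEC28, 0.034 for MSB2, 0.19 for UBP13, -0.14 for YBR178W, 0.24 for LIP1, -0.61 for RLM1, 0.35 for RPL43B, -1.19 for SAS10, 0.15 for COX2, 0.14 for AGP2, 0.60 for ADE16, 0.071 for SEC63, 0.62 for RPT2, 0.12 for GLK1, 0.18 for PAU7 and 0.49 for GPA1. Array 1 alone gave -1.02 for YBR178W, -0.059 for RML2, -0.12 for SAS10 and 0.019 for GPA1, and array 2 alone gave 0.024 for PAU7. The causes were not tested. No paired analysis was possible because the swap is 1 replicate. Depth is not defined for arrays; 2491 of 6336 genes were not above background on at least 1 array and dye, and 164 of the 259 lower genes are among them.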

Other observations

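The 32 further control sequences on the array, which carry no yeast gene name, were outside the comparisons. Above the 95th percentile of the empty spots lay 30 and 29 of them in AT22 and 30 and 32 in S288C on arrays 1 and 2. Their median log2 AT22 over S288C was -0.15 on array 1 and -0.02 on array 2.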
